A study of Mus musculus with 6 samples.

Results

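The connecting cilium disease genes of photoreceptors were followed here in 6 RNA-seq libraries of mouse rods. The 8 members, Rpgrip1, Rpgr, Spata7, Nphp4, Cep290, Lca5, Mak and Fam161a, were found by symbol among 52143 annotated genes, and they have 77 of the 136550 annotated transcripts in the deposited table. All 8 genes passed the filter on low counts, as did 40 of the 77 transcripts. The libraries labelled Jun knockdown came from rods that carried a short hairpin RNA (shRNA) against Jun, and the control libraries from rods that carried a scrambled shRNA. In both groups the shRNA plasmid (2.5 µg/µl, 0.4 µl) was electroporated into the retinas of newborn mice together with a plasmid expressing EGFP from the Nrl promoter (1.5 µg/µl, 0.4 µl), a promoter active in rods. EGFP-positive cells were sorted at postnatal day 10, and each group has 3 libraries, which are whole-population samples of transfected cells rather than a germline mutant. The labels give a single shRNA clone against Jun, and they do not say which animals were pooled for a library.

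The connecting cilium is the narrow bridge between the inner segment of a photoreceptor, where proteins are made, and the light-sensing outer segment. It corresponds to the transition zone of other cilia: a bundle of microtubules held to the membrane by linker proteins, which acts as a gate for everything that enters the outer segment. RPGR and RPGRIP1 form a complex there, to which SPATA7 and NPHP4 also belong, and CEP290 sits in the links between microtubules and membrane. LCA5 (lebercilin) and FAM161A bind microtubules, and MAK is a kinase that restrains the length of the cilium. Mutations of these genes in people cause retinitis pigmentosa, Leber congenital amaurosis or syndromes that include them.

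Depth and group could not be told apart: the libraries labelled Jun knockdown held 13211279, 13325501 and 13998395 estimated counts, against 46239299, 105800769 and 32150086 in controls. Levels are CPM, counts scaled to a common library total and adjusted by TMM, a normalisation that matches the bulk of genes between libraries. Jun itself stood at 1.84, 17.6 and 19.3 CPM in the libraries labelled Jun knockdown and at 6.47, 5.85 and 7.16 CPM in controls, and was not lower there (a log2 fold change of 0.99 with an SE of 1.44, edgeR adjusted p = 0.764). The 11 rod markers summed to 11569 to 12422 CPM in libraries labelled Jun knockdown and to 85420 to 109476 CPM in controls, with 7 called lower. In whole-population RNA, fewer cells of a type and less RNA per cell cannot be told apart. Markers on the lists of 4 further cell types also had lower sums with no overlap between groups. Microglia markers summed to 1.64 to 5.23 CPM in libraries labelled Jun knockdown and 747 to 1018 CPM in controls (4 of 8 called lower), and pigment epithelium markers to 0.169 to 0.545 CPM in libraries labelled Jun knockdown and 143 to 213 CPM in controls (1 of 5 lower). That sum was Krt18 and Ttr: Rpe65, Best1 and Mitf, which define pigment epithelium, were at 0 to 0.204 CPM in libraries labelled Jun knockdown and 0 to 0.036 CPM in controls. Vascular and blood markers summed to 20.5 to 65.9 CPM in libraries labelled Jun knockdown and 165 to 302 CPM in controls (3 of 7 lower, Hba-a1 at 0). Kdr and Pdgfrb of that list had higher means in libraries labelled Jun knockdown, Kdr at 45.5 CPM against 17 CPM in controls. Müller glia markers summed to 145 to 360 CPM in libraries labelled Jun knockdown and 645 to 955 CPM in controls (0 of 8 called). Means of Slc1a3 (120 against 107 CPM) and Aqp4 (9.03 against 0.253 CPM) were higher in libraries labelled Jun knockdown than in controls, with overlap. The other markers of both lists had lower means. The microglia marker Cx3cr1 averaged 0.291 CPM in libraries labelled Jun knockdown and 0.308 CPM in controls. Cone, bipolar, amacrine, ganglion cell, progenitor and multiciliated cell sums overlapped between groups, although among the 8 bipolar markers Prkca was called higher (184, 156 and 313 CPM in libraries labelled Jun knockdown, 24.2, 7.94 and 16.1 CPM in controls; edgeR adjusted p = 0.0468) and Sebox lower (adjusted p = 0.0124). Of the multiciliated cell markers, which mark another source of ciliary transcripts, Ccdc39 alone had counts of note, at 3.61, 3.89 and 50.1 CPM in libraries labelled Jun knockdown and 23.6, 53.1 and 26.2 CPM in controls. The defining markers Foxj1, Tekt1, Dnah5, Dnah9 and Rsph1 were at 0 to 0.523 CPM in libraries labelled Jun knockdown and 0 to 0.489 CPM in controls. The part of these cell types in the differences below was not tested.

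The 8 genes did not move together. Rpgrip1 was the 1 member that rose by the test, and Rpgr and Cep290 stood higher in every library labelled Jun knockdown than in any control without passing it. The other 5 members had overlapping groups and none passed. Of 12815 genes tested with edgeR's quasi-likelihood test at an adjusted p of 0.05, 1.67% were called, 0.32% as higher and 1.35% as lower. That balance of 41 higher and 173 lower was 68 higher and 79 lower when libraries were scaled by their totals. Groups did not overlap for 3 of the 8 members, all of them higher, whereas groups did not overlap for 28.3% of all tested genes, 12.6% higher and 15.7% lower. The median log2 fold change was -0.23 over the 8 members and -0.12 over all tested genes. Levels are plotted per library for all 8 genes.

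**Figure D1:**
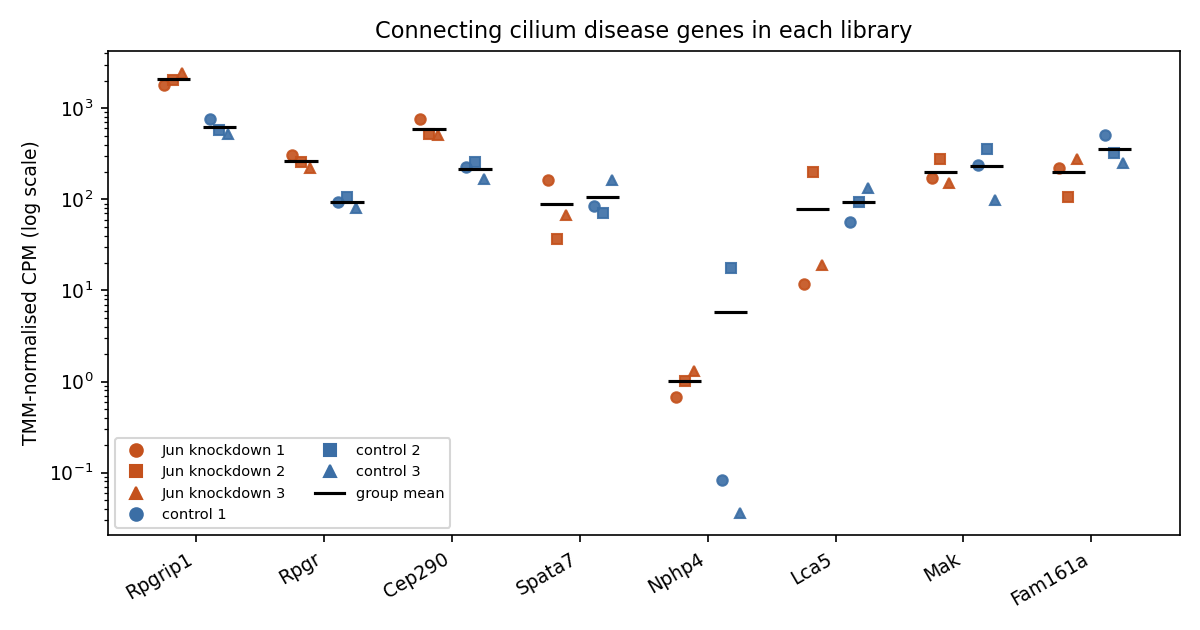
TMM-normalised CPM (log scale) of the 8 connecting cilium disease genes; each point is a library, with Jun knockdown left of control and a black bar at each group mean. Rpgrip1, Rpgr and Cep290 are separated between groups. Nphp4 is the lowest in every library, at 17.5 CPM in control 2 and at most 1.31 CPM elsewhere.

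Rpgrip1 (ENSMUSG00000057132), on the forward strand at chr14:52110704-52163546 of GRCm38, encodes the scaffold that holds RPGR at the connecting cilium. Its level was 1803, 2063 and 2453 CPM in the libraries labelled Jun knockdown, against 756, 577 and 526 CPM in controls. The groups were well apart, and the means were 2106 ± 327 CPM in libraries labelled Jun knockdown and 620 ± 121 CPM in controls (SD, n = 3 each), a 3.4-fold ratio. That is a log2 fold change of 1.76 with an SE of 0.28 (edgeR adjusted p = 0.0199), and with counts thinned to equal depth it was 2.08 (SE 0.29, adjusted p = 0.0138). With gene counts as sums of transcript counts it was smaller, at 1.38 (SE 0.25, edgeR adjusted p = 0.0332). The call was lost with DESeq2 (adjusted p = 0.135) and when any 1 library other than Jun knockdown 1 was left out of the edgeR fit, with adjusted p-values of 0.0508 without Jun knockdown 2, 0.0655 without Jun knockdown 3, and 0.0600, 0.0708 and 0.0898 without control 1, 2 and 3, while the log2 fold change stayed between 1.62 and 1.89.

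The RefSeq start of Rpgrip1 is shown because its window carries letters that the rod factors CRX and NRL are known to bind. The RefSeq window of 250 bases before to 50 after the start, chr14:52110653-52110952 on the forward strand of GRCm38.p6, is given with both matches in capitals.
Rpgrip1: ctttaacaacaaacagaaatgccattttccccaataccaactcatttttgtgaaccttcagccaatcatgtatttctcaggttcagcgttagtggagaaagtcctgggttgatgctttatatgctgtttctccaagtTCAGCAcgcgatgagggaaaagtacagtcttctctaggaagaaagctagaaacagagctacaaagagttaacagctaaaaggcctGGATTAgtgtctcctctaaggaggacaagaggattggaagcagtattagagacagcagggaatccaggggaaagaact
GGATTA, the reverse complement of TAATCC and a CRX-type motif, begins 28 bases before the start, and TCAGCA, the reverse complement of TGCTGA and a MAF-type motif of the kind that NRL binds, begins 113 bases before it. On either strand, 7.06% of 32851 RefSeq windows of this length hold the CRX-type motif and 19.5% the MAF-type one. Among the 14 windows of the members, 2 held the CRX-type motif, in Rpgrip1 and Mak, and 2 the MAF-type motif, in Rpgrip1 and Nphp4. These are matches of letters only. Both Rpgrip1 matches lie within the first exon of the transcript Rpgrip1-202, chr14:52110704-52110982, which begins upstream of the RefSeq start. The short transcript Rpgrip1-217, described below, begins far from this window, at chr14:52158451.

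Most Rpgrip1 counts were assigned to transcripts that are not annotated as coding. Transcripts annotated as nonsense-mediated decay, retained intron or otherwise without a coding biotype made up 91.2%, 88.2% and 82.6% of Rpgrip1 transcript counts in libraries labelled Jun knockdown, against 80.2%, 60.4% and 66.4% in controls. The groups did not overlap (exact permutation p = 0.1, two-sided, the smallest that 3 against 3 libraries allow). Summed, these transcripts stood at 1429, 1559 and 1664 CPM in libraries labelled Jun knockdown, against 551, 415 and 454 CPM in controls, and rose by the test (a log2 fold change of 1.71 with an SE of 0.29, edgeR adjusted p = 0.0261). The coding transcripts of Rpgrip1 summed to 139, 209 and 351 CPM in libraries labelled Jun knockdown, against 136, 272 and 230 CPM in controls. Those groups overlapped (a log2 fold change of 0.13 with an SE of 0.56, adjusted p = 0.932). The rise of the non-coding sum was lost with DESeq2 (adjusted p = 0.136) and without any 1 of the 6 libraries (adjusted p = 0.0646 to 0.11).

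A single short form held much of this difference. Rpgrip1-217, a 4-exon transcript of 1733 bases at the 3′ end of the gene (chr14:52158451-52163546) with a nonsense-mediated decay biotype, stood at 783, 889 and 895 CPM in libraries labelled Jun knockdown, against 345, 133 and 148 CPM in controls. Its groups did not overlap, and its log2 fold change of 2.04 (SE 0.46) missed the threshold (edgeR adjusted p = 0.0921), while limma-voom placed it past the threshold (adjusted p = 0.0103). It took 56.8%, 55.9% and 51.2% of Rpgrip1 transcript counts in libraries labelled Jun knockdown, against 46%, 16.9% and 22.7% in controls. Rpgrip1-218, a retained-intron form of 22 exons, overlapped between groups at 322, 375 and 208 CPM in libraries labelled Jun knockdown and 190, 219 and 197 CPM in controls (a log2 fold change of 0.58 with an SE of 0.45, adjusted p = 0.615). Retained-intron forms taken alone held a smaller share of Rpgrip1 in libraries labelled Jun knockdown, 34.3%, 32.3% and 31.3%, against 34.2%, 42.9% and 43.3% in controls, and those groups overlapped (exact permutation p = 0.2).

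The long coding forms held smaller shares in libraries labelled Jun knockdown. Rpgrip1-201, of 25 exons and 3381 coding bases, had no count in any library labelled Jun knockdown and 81.2, 140 and 32.4 CPM in controls. Its summed counts were 0 in libraries labelled Jun knockdown and 13556 in controls. After scaling for depth this was 1745-fold lower when 3 counts over the group are put in place of 0. Error in dividing reads among forms was not measured, so this fold is no lower bound. Rpgrip1-201 passed the filter on low counts through the controls alone, which limits what its tests can show. It missed the threshold in edgeR (adjusted p = 0.0633) and passed it with no filter (adjusted p = 1.4e-05), with DESeq2 (adjusted p = 2.1e-05) and with limma-voom (adjusted p = 0.00825). Rpgrip1-202, of 3993 coding bases, stood at 23.5, 5.79 and 25.5 CPM in libraries labelled Jun knockdown and 9.35, 94.6 and 110 CPM in controls, with overlapping groups (adjusted p = 0.535). The long coding forms together (Rpgrip1-201, Rpgrip1-202 and Rpgrip1-213, grouped after their values were seen) held 1.7%, 0.365% and 1.46% of Rpgrip1 transcript counts in libraries labelled Jun knockdown, against 12.1%, 31.1% and 24.7% in controls (exact permutation p = 0.1). The shorter coding form Rpgrip1-210, of 7 exons at chr14:52149518-52160296, stood at 98.4, 169 and 279 CPM in libraries labelled Jun knockdown and 53, 66.7 and 57.8 CPM in controls, and did not pass (a log2 fold change of 1.62 with an SE of 0.66, adjusted p = 0.292). The remaining 4 tested forms, all retained introns, had adjusted p-values of 0.479 to 0.637; Rpgrip1-204 and Rpgrip1-205 lay higher and Rpgrip1-215 lower without overlap, and Rpgrip1-209 overlapped. These transcripts share exons, and the estimate that divides reads among them carries an error that the counts do not show.

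**Figure D2:**
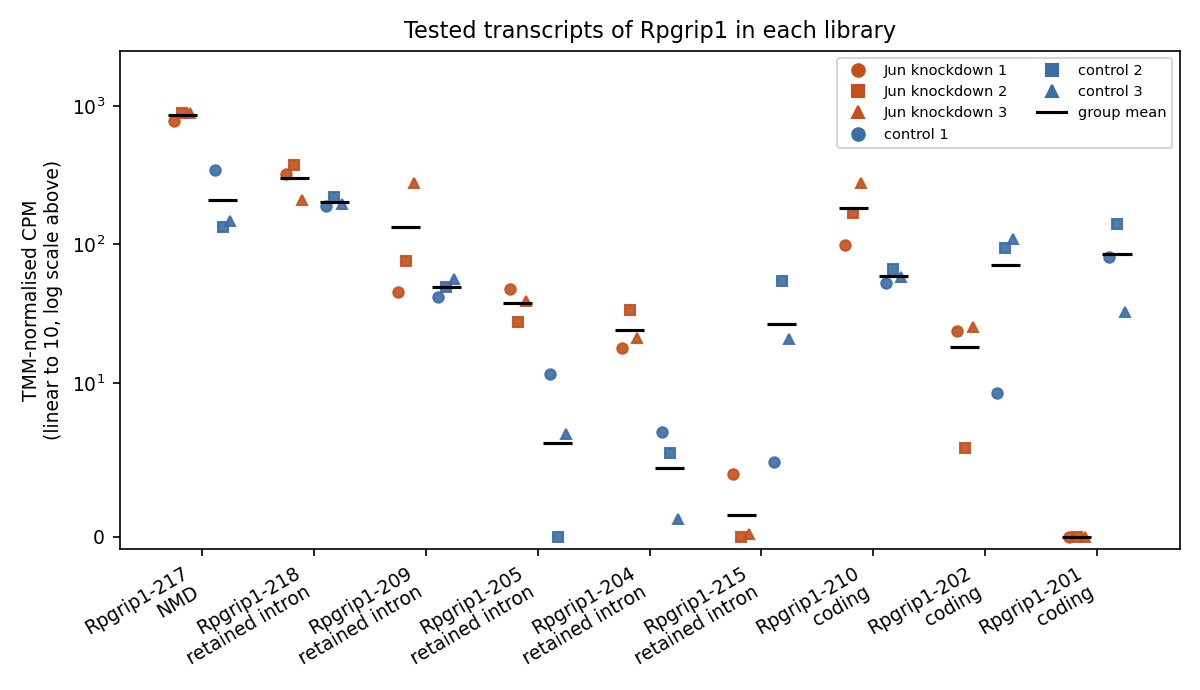
TMM-normalised CPM (linear up to 10, log scale above) of the 9 tested Rpgrip1 transcripts with their annotated class; each point is a library, with Jun knockdown left of control and a black bar at each group mean. Rpgrip1-217 lies at 783 to 895 CPM in the 3 Jun knockdown libraries, above all controls, and Rpgrip1-201 is at 0 in all 3 of them.

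Rpgr (ENSMUSG00000031174), X-linked and on the reverse strand at chrX:10073621-10216920, encodes the RCC1-domain protein that RPGRIP1 anchors. It stood at 309, 256 and 219 CPM in libraries labelled Jun knockdown, against 92.9, 105 and 79.5 CPM in controls. Every library labelled Jun knockdown was above every control, with a log2 fold change of 1.50 (SE 0.49) that did not pass adjustment (edgeR adjusted p = 0.172). Its coding transcripts, which held nearly all of its counts, summed to 311, 298 and 240 CPM in libraries labelled Jun knockdown and 96.7, 120 and 88.1 CPM in controls (a log2 fold change of 1.48 with an SE of 0.51, adjusted p = 0.186).

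Rpgr has RefSeq starts 342 bases apart, and both windows are shown because each holds TGANTCA, the AP-1 motif bound by dimers that contain JUN. Both lie on the reverse strand of GRCm38.p6, at chrX:10216746-10217045 for the upstream start and chrX:10216404-10216703 for the downstream one, and the motif is in capitals.
Rpgr upstream: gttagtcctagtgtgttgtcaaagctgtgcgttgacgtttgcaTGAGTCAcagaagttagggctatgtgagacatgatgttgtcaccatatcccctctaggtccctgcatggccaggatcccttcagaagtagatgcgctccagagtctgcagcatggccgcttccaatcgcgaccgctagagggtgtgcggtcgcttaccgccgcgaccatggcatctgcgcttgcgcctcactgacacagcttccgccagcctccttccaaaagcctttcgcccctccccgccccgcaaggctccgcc
Rpgr downstream: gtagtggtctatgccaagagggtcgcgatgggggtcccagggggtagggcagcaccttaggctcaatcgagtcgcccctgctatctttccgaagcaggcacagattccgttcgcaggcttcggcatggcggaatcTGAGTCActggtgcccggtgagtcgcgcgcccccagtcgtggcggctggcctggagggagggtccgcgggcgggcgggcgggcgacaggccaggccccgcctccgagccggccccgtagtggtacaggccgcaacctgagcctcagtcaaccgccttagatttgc
The match begins 207 bases before the upstream start and 115 bases before the downstream one. The match of the downstream window lies within the first exon of the transcript Rpgr-203, chrX:10216552-10216920, described below. Of the 32851 windows, 7.81% hold TGANTCA on either strand, as do 3 of the 14 member windows, the third being one of Nphp4. TGANTCA may overlap the MAF-type motif TGCTGA where both occur. Whether JUN binds these letters was not measured here.

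The assignment of Rpgr counts to its first exons differed between groups. Rpgr-206 and Rpgr-208, which begin at or near the downstream start, held 75.9%, 54.8% and 58.9% of Rpgr transcript counts in libraries labelled Jun knockdown, against 10.4%, 30.3% and 0.00252% in controls. The groups did not overlap (exact permutation p = 0.1), and this grouping was chosen after values were seen. Rpgr-206 itself stood at 207, 147 and 122 CPM in libraries labelled Jun knockdown and 10.9, 41.7 and 0 CPM in controls, with a log2 fold change of 3.18 (SE 1.88, adjusted p = 0.5). Controls were not alike. Rpgr-203 held most counts in control 1 and control 3, and had none in control 2 or in any library labelled Jun knockdown. Its first exon, chrX:10216552-10216920, begins further upstream than the RefSeq upstream start and spans that start. Rpgr-201, the 18-exon form of 3117 coding bases, stood at 38.6, 79.4 and 25.8 CPM in libraries labelled Jun knockdown, against 0.0309, 58 and 0.267 CPM in controls (adjusted p = 0.832). Rpgr-205 overlapped as well (adjusted p = 0.788).

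**Figure D3:**
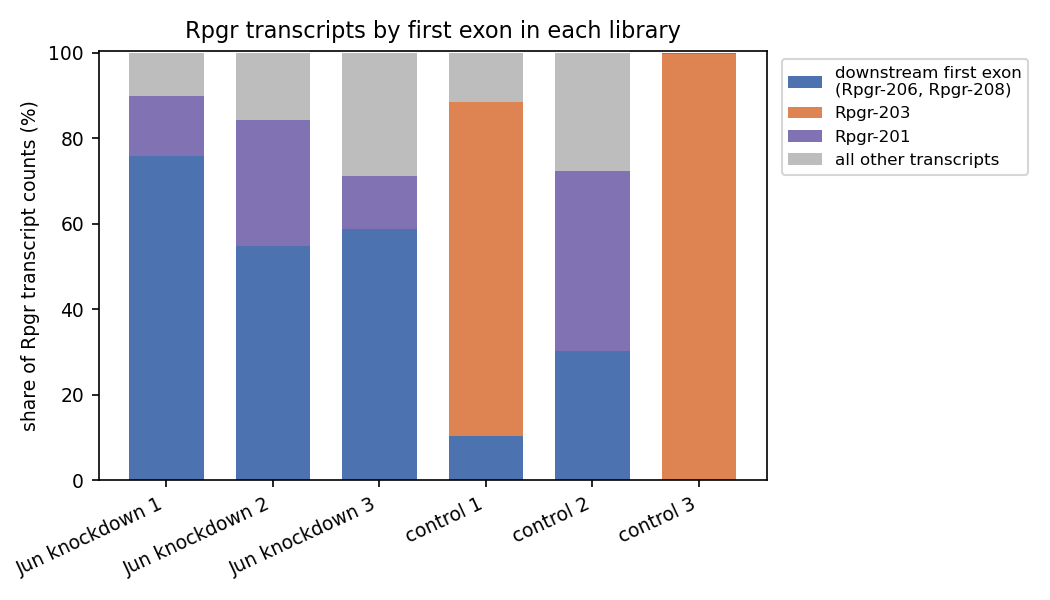
Share of Rpgr transcript counts (%, stacked to 100) in each library, with the 3 Jun knockdown libraries left of the 3 controls. Transcripts with the downstream first exon take 54.8% to 75.9% in Jun knockdown libraries and at most 30.3% in controls, where Rpgr-203 fills most of control 1 and control 3.

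Spata7 (ENSMUSG00000021007; chr12:98628157-98669815, forward strand) encodes a partner of RPGRIP1 needed to keep the complex along the length of the photoreceptor cilium. As a gene it overlapped between groups, at 164, 36.5 and 67.6 CPM in libraries labelled Jun knockdown and 85, 70.1 and 165 CPM in controls. Its log2 fold change of -0.25 (SE 0.79, edgeR adjusted p = 0.896) turned to 0.18 when libraries were scaled by their totals. Its coding forms Spata7-201 and Spata7-202, unlike the gene, were each seen in 1 group alone.

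Spata7-201, the 12-exon form of 1746 coding bases, had no count in the libraries labelled Jun knockdown and 92.9, 74.9 and 156 CPM in controls. It was the 1 member transcript called by edgeR, as lower (adjusted p = 0.0461), where 0.662% of 20706 tested transcripts were called, 0.058% as higher and 0.604% as lower. Its counts summed to 0 in libraries labelled Jun knockdown and 12518 in controls. After scaling this was 1611-fold lower with a floor of 3 counts over the group. Spata7-202, the 10-exon form of 1245 coding bases, showed the reverse, with 80.8, 22.6 and 20.9 CPM in libraries labelled Jun knockdown and no count in controls. Its counts summed to 2018 in libraries labelled Jun knockdown and 0 in controls, 1742-fold higher by the same floor. It did not pass in edgeR (adjusted p = 0.0875) but did with DESeq2 (adjusted p = 2.2e-05) and limma-voom (adjusted p = 0.00756). Both forms passed the filter through the counts of 1 group alone. The floor stands for read counting only. Error in dividing reads among forms that share exons was not measured, so these folds are no lower bounds. The call of Spata7-201 was lost when libraries were scaled by totals (adjusted p = 0.0798), at equal depth (adjusted p = 0.0527) and without any 1 of the 6 libraries (adjusted p = 0.0678 to 0.203). It was kept with no filter (adjusted p = 9.0e-07), with DESeq2 (adjusted p = 8.6e-06) and with limma-voom (adjusted p = 0.00756).

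The forms differ mainly by a pair of exons, and the sequences around them are shown because they tell the forms apart. Spata7-201 has an exon of 434 bases at chr12:98658213-98658646 and one of 67 bases at chr12:98659550-98659616 that Spata7-202 lacks. Together they hold 501 bases, which is 167 whole codons, so the shorter form keeps the reading frame over that stretch. The GENCODE vM21 sequence of Spata7-201 is printed with its 67-base exon in capitals between 20 bases of each neighbouring exon, and that of Spata7-202 with the 20 bases on each side of the junction that replaces it.
Spata7-201: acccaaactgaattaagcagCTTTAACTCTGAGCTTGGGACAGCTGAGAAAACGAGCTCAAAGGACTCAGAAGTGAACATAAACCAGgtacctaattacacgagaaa
Spata7-202: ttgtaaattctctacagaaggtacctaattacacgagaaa
The last 20 bases, from the next shared exon, are the same in both lines.

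As shares of Spata7 transcript counts, Spata7-201 held 0% in each library labelled Jun knockdown, against 83.6%, 76.8% and 80.4% in controls, and Spata7-202 held 56.7%, 62.1% and 29.9% in libraries labelled Jun knockdown, against 0% in each control (exact permutation p = 0.1 for each). Retained-intron forms held 43.2%, 30.4% and 68.9% in libraries labelled Jun knockdown and 16.4%, 23% and 0.256% in controls, with no overlap (exact permutation p = 0.1). Summed, the non-coding forms of Spata7 stood at 70, 12.3 and 55.5 CPM in libraries labelled Jun knockdown and 16.8, 19.6 and 0.52 CPM in controls, and these sums overlapped. The other 4 tested forms, Spata7-203, Spata7-207, Spata7-208 and Spata7-209, had adjusted p-values of 0.391 to 0.968.

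**Figure D4:**
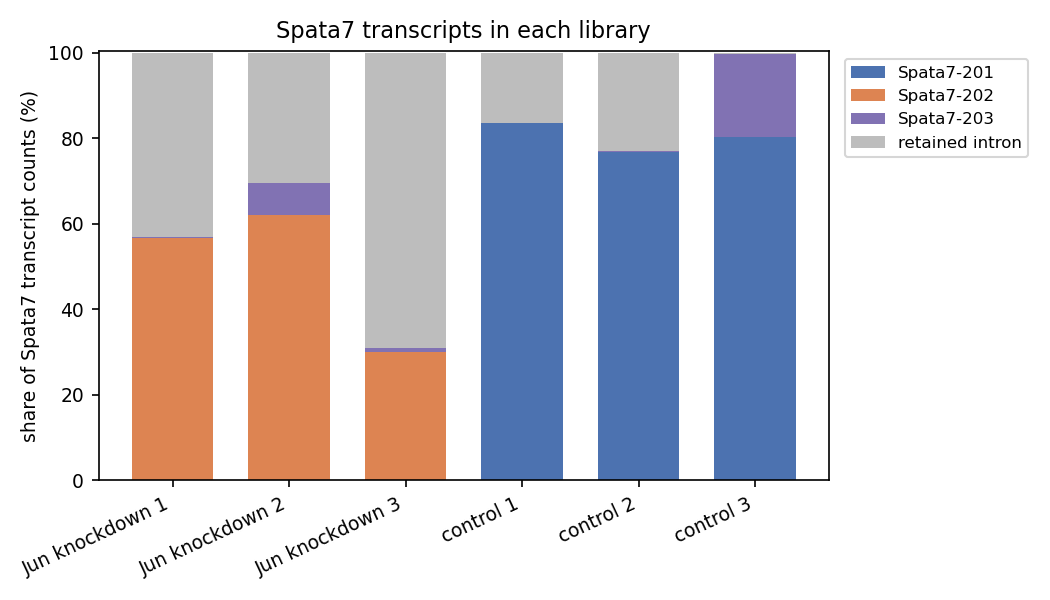
Share of Spata7 transcript counts (%, stacked to 100) in each library, with the 3 Jun knockdown libraries left of the 3 controls. Spata7-202 (29.9% to 62.1%) is seen in Jun knockdown libraries and Spata7-201 (76.8% to 83.6%) in controls, with no library holding counts of both.

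Nphp4 (ENSMUSG00000039577; chr4:152476706-152563183, forward strand), whose product joins the RPGRIP1 complex at the transition zone, was close to the limit of detection. It had 10, 18 and 20 estimated counts in libraries labelled Jun knockdown and 3, 1578 and 1 in controls, so 1 control library held nearly all of its signal. In CPM these were 0.681, 1.02 and 1.31 in libraries labelled Jun knockdown and 0.0823, 17.5 and 0.036 in controls. The fit gave a log2 fold change of -2.55 with an SE of 2.12 (adjusted p = 0.576), which turned to 3.95 without control 2 (adjusted p = 0.299). Of its 6 transcripts, 1 was tested, Nphp4-202, at 1.03, 1.46 and 1.58 CPM in libraries labelled Jun knockdown and 0, 13.5 and 0 CPM in controls.

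Cep290 (ENSMUSG00000019971; chr10:100487558-100574840, forward strand) encodes a large coiled-coil protein of the links between microtubules and membrane. It stood at 769, 524 and 504 CPM in libraries labelled Jun knockdown, against 227, 255 and 168 CPM in controls. Each library labelled Jun knockdown exceeded each control, and the log2 fold change of 1.47 (SE 0.39) missed the threshold (edgeR adjusted p = 0.0969) except when libraries were scaled by their totals (1.96, adjusted p = 0.0453). That scaling moved the median of all tested genes to 0.38 on the log2 scale, against -0.12 with TMM. With gene counts as sums of transcript counts, the log2 fold change of Cep290 was 1.11 (SE 0.41, edgeR adjusted p = 0.221). Its non-coding forms summed to 90.6, 136 and 167 CPM in libraries labelled Jun knockdown and 71.6, 30.9 and 12.7 CPM in controls, without overlap (a log2 fold change of 1.77 with an SE of 0.88, adjusted p = 0.368). Cep290-210, the 54-exon coding form, held most counts in every library and overlapped between groups, at 573, 334 and 233 CPM in libraries labelled Jun knockdown and 129, 349 and 213 CPM in controls (a log2 fold change of 0.72 with an SE of 0.55, adjusted p = 0.611). The other 4 tested forms, Cep290-202, Cep290-203, Cep290-205 and Cep290-207, had adjusted p-values of 0.487 to 0.964.

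Lca5 (ENSMUSG00000032258; chr9:83390293-83441127, reverse strand) encodes lebercilin, a microtubule-associated protein that binds the intraflagellar transport machinery. It varied more within groups than between them, with 11.8, 202 and 18.8 CPM in libraries labelled Jun knockdown and 56, 94.2 and 132 CPM in controls. Jun knockdown 2 alone was above all controls. The log2 fold change of -0.28 (SE 1.09, adjusted p = 0.918) was 0.35 with library totals and -2.61 without Jun knockdown 2. In that library the retained-intron form Lca5-206 held 44.9% of the gene's transcript counts, against 2.91% and 6.18% in the other libraries labelled Jun knockdown and 0.342%, 15.7% and 39.3% in controls. The full coding form Lca5-201 stood at 14.3, 51.2 and 31.3 CPM in libraries labelled Jun knockdown and 40.1, 99.9 and 71.6 CPM in controls (adjusted p = 0.659), and the other 3 tested forms, Lca5-204, Lca5-205 and Lca5-206, had adjusted p-values of 0.704 to 0.984.

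Mak (ENSMUSG00000021363; chr13:41025008-41079706, reverse strand), a kinase that in mice limits elongation of the photoreceptor cilium, overlapped fully between groups. It stood at 171, 280 and 152 CPM in libraries labelled Jun knockdown and 241, 354 and 98.3 CPM in controls, with a log2 fold change of -0.20 (SE 0.58, adjusted p = 0.889) that was 0.34 with library totals. Its transcripts were nearly all coding. Mak-206, the most abundant in each group's mean, stood at 143, 149 and 122 CPM in libraries labelled Jun knockdown and 118, 131 and 39.6 CPM in controls (adjusted p = 0.781), and the other 4 tested forms, Mak-202, Mak-203, Mak-204 and Mak-205, had adjusted p-values of 0.768 to 0.928.

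Fam161a (ENSMUSG00000049811; chr11:23007531-23030788, forward strand) encodes a microtubule-binding protein of the inner scaffold of the connecting cilium. It stood at 220, 106 and 279 CPM in libraries labelled Jun knockdown and 506, 320 and 253 CPM in controls. The groups overlapped through Jun knockdown 3 and control 3 (a log2 fold change of -0.83 with an SE of 0.52, adjusted p = 0.448). All 7 of its transcripts are coding and were tested, and none was called. Fam161a-207 alone lay lower without overlap, at 7.39, 0.542 and 0.486 CPM in libraries labelled Jun knockdown and 65.8, 71.8 and 27.2 CPM in controls (a log2 fold change of -4.29 with an SE of 1.65, adjusted p = 0.257). Fam161a-203, the most abundant form in each group's mean, stood at 159, 49.3 and 33.1 CPM in libraries labelled Jun knockdown and 181, 262 and 136 CPM in controls (adjusted p = 0.515). In Jun knockdown 3 it was below Fam161a-204, at 106 CPM. The other 5, Fam161a-201, Fam161a-202, Fam161a-204, Fam161a-205 and Fam161a-206, overlapped between groups (adjusted p = 0.577 to 0.98).

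Over all 40 tested member transcripts, groups did not overlap for 11, of which 7 were higher and 4 lower in libraries labelled Jun knockdown, or 27.5%, where the share over all tested transcripts was 30%. The median log2 fold change was 0.25 over these transcripts and -0.18 over all tested ones. At 0 in every library of both groups were 10 of the 77 transcripts. A further 16 had no count in the libraries labelled Jun knockdown only, and 5 had none in the controls only. Libraries labelled Jun knockdown were less deep, and the same counts over all transcripts were not taken. These numbers are therefore not read as a difference between groups. Some of the 16 had few counts in controls, such as Rpgr-204 and Mak-208 with 8 each. Of 12 tested sums of coding or of non-coding transcripts, 1 was called, the non-coding sum of Rpgrip1, where 1.43% of 13725 such sums were called (0.16% higher, 1.27% lower). The median log2 fold change was 0.11 over the members' sums and -0.15 over all.

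The non-coding share of the 8 genes together was higher in libraries labelled Jun knockdown, 47.4%, 55.3% and 57.3%, against 35.6%, 22.5% and 29% in controls (a mean of 53.3% ± 5.21 in libraries labelled Jun knockdown and 29% ± 6.53 in controls, SD, n = 3 each; exact permutation p = 0.1). Without Rpgrip1 the shares were 9.17%, 15.4% and 17.6% in libraries labelled Jun knockdown and 8.45%, 4.85% and 6.05% in controls (exact permutation p = 0.1). The same share over all protein-coding genes was 14.8%, 17% and 14.8% in libraries labelled Jun knockdown and 6.92%, 7.8% and 7.55% in controls, so it moved with group across the transcriptome. Non-coding sums over all genes had a median log2 fold change of 0.87, with 11 of 4282 called higher and 5 lower, and coding sums one of -0.56, with 11 of 9443 called higher and 169 lower. The part of this shift in the rise of Rpgrip1 was not tested.

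**Figure D5:**
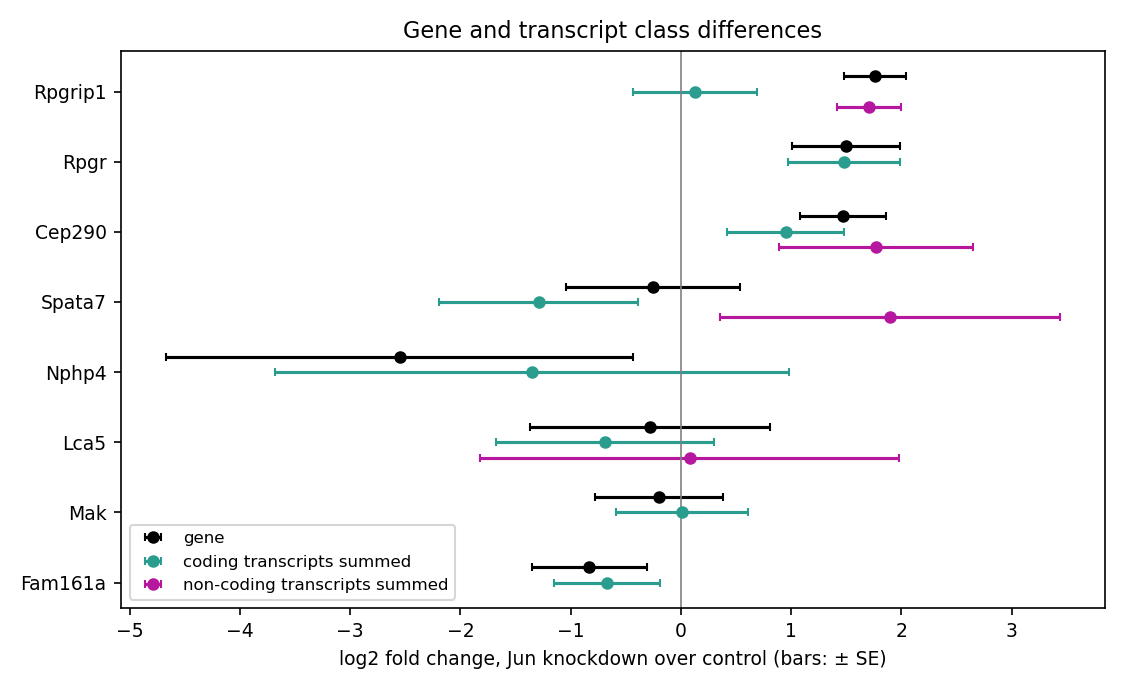
log2 fold change, Jun knockdown over control, with bars of ± SE, for each gene and for its summed coding and non-coding transcripts where tested. For Rpgrip1 the gene (1.76) and the non-coding sum (1.71) lie together and the coding sum (0.13) lies near 0. Gene values use the deposited gene counts, which are not sums of the transcript counts. With gene counts as sums of transcript counts, Rpgrip1 was at 1.38.

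Per length, in TPM, counts divided by transcript length and scaled to a common total, Rpgrip1 was the most abundant of the 8 in every library, at 1405 ± 245 TPM in libraries labelled Jun knockdown and 318 ± 47.9 TPM in controls (SD, n = 3 each). A count on a short transcript adds more TPM than one on a long transcript. The 1733-base form Rpgrip1-217 held 51.2% to 56.8% of Rpgrip1 transcript counts in libraries labelled Jun knockdown. The TPM of Rpgrip1 are thus not levels of its long coding forms. In libraries labelled Jun knockdown Rpgrip1 was followed by Fam161a (194 TPM), Cep290 (173), Rpgr (140), Mak (124), Spata7 (73.4), Lca5 (53.2) and Nphp4 (0.456 TPM). Neighbours in this order overlapped except Rpgrip1 with Fam161a and Lca5 with Nphp4. In controls the order of mean TPM was Rpgrip1, Fam161a (261 TPM), Mak (106), Spata7 (70.8), Cep290 (51.5), Lca5 (43.1), Rpgr (39) and Nphp4 (2.07 TPM), and neighbours overlapped except Fam161a with Mak and Rpgr with Nphp4. The levels of Rpgrip1 and Fam161a were thus apart in libraries labelled Jun knockdown and overlapped in controls.

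Further genes of the connecting cilium and its surroundings were taken from 4 lists chosen by function. None of their 45 tested genes, of 54 listed, was called, and 8 had an unadjusted p under 0.05, where 16.8% of all tested genes did. Other settings called some: 2 with library totals, 3 with no filter, 2 with limma-voom and 0 with DESeq2. Their median log2 fold change was -0.18, with 20 positive and 25 negative, and groups did not overlap for 33.3% of them, near the 28.3% of all tested genes. All 22 genes of the ciliary gate were tested (median -0.02; 5 with an unadjusted p under 0.05), 11 of 14 of the axoneme and inner scaffold (median 0.18; 1), 4 of 10 of the periciliary and Usher group (median -0.47; 1) and all 8 partners of RPGR or RPGRIP1 (median -0.51; 1).

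The genes with the smallest p-values in these lists went in both directions. Cspp1, a centrosome and transition-zone protein, stood at 323, 384 and 461 CPM in libraries labelled Jun knockdown and 123, 83.9 and 60.3 CPM in controls (a log2 fold change of 2.13 with an SE of 0.49, adjusted p = 0.0635). Tmem237, a membrane protein of the transition zone, averaged 437 ± 121 CPM in libraries labelled Jun knockdown and 1099 ± 158 CPM in controls (SD, n = 3 each; a log2 fold change of -1.33 with an SE of 0.34, adjusted p = 0.0833). Cetn3, a centrin of the basal body and connecting cilium, stood at 1420, 671 and 1303 CPM in libraries labelled Jun knockdown and 403, 198 and 255 CPM in controls (a log2 fold change of 1.99 with an SE of 0.43, adjusted p = 0.0564). For these genes the groups were apart in every library, although none passed the threshold. Pcdh15, a cadherin mutated in Usher syndrome, stood at 431, 702 and 632 CPM in libraries labelled Jun knockdown and 314, 77.9 and 236 CPM in controls (a log2 fold change of 1.49 with an SE of 0.54, adjusted p = 0.209). Pde6d, the carrier of prenylated proteins that binds RPGR, stood at 48.6, 5.87 and 73.9 CPM in libraries labelled Jun knockdown and 323, 159 and 110 CPM in controls (a log2 fold change of -2.21 with an SE of 0.94, adjusted p = 0.283). Groups were apart for both, as they were for Rp1l1, a doublecortin-domain protein of the photoreceptor axoneme, at 319, 332 and 138 CPM in libraries labelled Jun knockdown and 130, 134 and 86 CPM in controls (a log2 fold change of 1.17 with an SE of 0.55, adjusted p = 0.32). Clrn1 and Rab8a, the others with the smallest p in their lists, overlapped between groups, with adjusted p-values of 0.844 and 0.492.

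The genes whose profile over the 6 libraries lay nearest to that of Rpgrip1, by Euclidean distance of centred log2 CPM among 10281 genes annotated as coding, were Thoc1 (distance 0.323), Nktr (0.407), Upf3b (0.427), Hnrnph1 (0.451) and Kantr (0.46). Thoc1, a subunit of the THO complex of mRNA export, stood at 406, 390 and 543 CPM in libraries labelled Jun knockdown and 163, 108 and 93.8 CPM in controls. None of these 5 passed the threshold by itself (adjusted p = 0.0514 to 0.292).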

How the data were processed

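Per the labels' protocols, cDNA came from SMART-seq v4 and was tagmented with Nextera XT, and no strand-marking step is described. The submitters' processing notes name Trimmomatic 0.39, kallisto 0.44.0 and edgeR 3.28.1, without role or order; no genome build is stated in the sources used here. The authors deposited estimated counts per gene and estimated counts per transcript, not normalised, and a table of normalised signal per gene, from which names, biotypes and coordinates were taken here. All 8 members have the coordinates of GENCODE vM21 (GRCm38), and 134456 transcripts, with 98.88% of transcript counts, were found there. The gene table is no sum of the transcript table: 6.62% of gene values came within 1% of it (sums over 50 counts). No column was left without a sample (0). Transcripts not found in GENCODE vM21 were given no gene here and were left out of the sums by class.

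Rounded counts passed through filterByExpr and TMM scaling, and all features left were fitted with edgeR 4.0.16 (quasi-likelihood, group as the only term, R 4.3.3), Benjamini-Hochberg adjusted, with a threshold of 0.05. The SE is the absolute log2 fold change over the square root of F. Levels are TMM CPM. TPM divide counts by annotated length. Transcripts of protein-coding genes were also summed into coding and non-coding classes and tested in the same way. Shares were compared by two-sided exact permutation tests. Promoter windows are those of RefSeq. Counting error from estimated counts is approximate, and a floor of 3 counts over a group stands for 0. Alternatives were other scalings (RLE, library totals), no filter, DESeq2 1.42.0, limma-voom (limma 3.58.1), counts thinned to equal depth, a replicate block and each library left out; gene counts as sums of transcript counts were added after seeing the data. The fit was tested on simulated data.

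The members and lists were chosen with earlier results of these data known. All members and tested transcripts are named, plus the genes past the threshold, or otherwise the 2 with the smallest p, of each list. Nothing in the labels ties libraries to separate animals, and each p-value reflects only how much these libraries vary, which may be technical in part.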

Additional observations from a re-analysis of the deposited data

How the results depend on the processing

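The count of called genes, 214, was 737 with no filter, 1955 with DESeq2, 442 with limma-voom and 97 with a replicate block, and 36 to 110 with 1 library left out. Called members, 1 in the fit reported, were 2 with library totals, 0 with DESeq2 and 0 to 1 with a library left out. In the ciliary lists, with 0 called, there were 2 with library totals, 3 with no filter, 2 with limma-voom, 1 each at equal depth, with the replicate block and with summed transcripts, and 0 to 1 with a library left out. Called member transcripts, 1 in the fit reported, were 0 with library totals, 5 with no filter, 6 with DESeq2, 4 with limma-voom, 0 at equal depth, 0 with the replicate block and 0 with any library left out; called class sums went to 0 with any library left out. The non-coding share differed by 24.3 percentage points, and by 4.82 with retained introns alone, where the difference over all protein-coding genes was 5.25. The replicate numbers did not pair the libraries: deviations from the group means correlated at 0.00, 0.01 and -0.02 for same-numbered libraries. The cause of these changes was not tested.

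No call changed direction. Log2 fold changes that reversed without a call were, with library totals, Spata7 0.18, Lca5 0.35, Mak 0.34, Lca5-206 0.71, Mak-202 0.58, Mak-204 0.25, Fam161a-202 0.51 and Fam161a-204 0.54; at equal depth, Lca5 0.06, Mak 0.10, Lca5-206 0.07, Mak-202 0.02, Fam161a-202 0.04 and Fam161a-204 0.05; with limma-voom, Nphp4 1.18, Nphp4-202 3.19, Nphp4 coding 3.34, Spata7-203 0.95, Lca5-205 -0.98, Lca5 non-coding -1.39, Fam161a-205 -1.19, Rpgrip1 coding -0.04 and Mak coding -0.18. With the replicate block they were Nphp4 2.07, Nphp4-202 5.22, Nphp4 coding 5.18, Spata7-203 2.74, Cep290-203 -0.55, Lca5-206 0.11, Lca5-205 -1.28, Lca5 non-coding -1.61 and Fam161a-205 -1.00; with no filter, Lca5 non-coding -0.02 and Mak coding -0.12; with summed transcripts, Mak 0.00. With 1 library left out, ranges that crossed 0 were Spata7 -1.07 to 0.23, Nphp4 -3.18 to 3.95, Lca5 -2.61 to 0.21, Mak -0.56 to 0.27, Spata7-203 -4.67 to 4.10, Spata7-207 -3.18 to 1.00, Nphp4-202 -2.35 to 7.87, Cep290-203 -0.63 to 1.20, Lca5-206 -4.19 to 1.08, Lca5-205 -8.07 to 1.80, Mak-202 -0.89 to 0.20, Mak-203 -1.99 to 1.09, Fam161a-205 -1.39 to 0.70, Fam161a-202 -0.81 to 0.03, Fam161a-204 -2.08 to 0.36, Rpgrip1 coding -0.34 to 0.40, Nphp4 coding -1.99 to 8.01, Lca5 non-coding -4.06 to 1.37 and Mak coding -0.41 to 0.56.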

Other observations

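Ratios between 4 pairs of members, in CPM, were chosen after their levels were seen and are given as values with no test. Cep290 over Rpgr was 2.49, 2.05 and 2.3 in libraries labelled Jun knockdown and 2.44, 2.43 and 2.12 in controls. Rpgrip1 over Rpgr was 5.84, 8.07 and 11.2 in libraries labelled Jun knockdown and 8.14, 5.5 and 6.62 in controls. Rpgrip1 over Cep290 was 2.35, 3.93 and 4.87 in libraries labelled Jun knockdown and 3.34, 2.26 and 3.13 in controls. Rpgrip1 over Fam161a was 8.18, 19.4 and 8.79 in libraries labelled Jun knockdown and 1.5, 1.81 and 2.08 in controls. The first 3 ratios overlapped between groups and the last did not. The 8 members summed to 3449, 3469 and 3694 CPM in libraries labelled Jun knockdown and 1963, 1793 and 1422 CPM in controls, of which Rpgrip1 made up 52.3%, 59.5% and 66.4% in libraries labelled Jun knockdown and 38.5%, 32.2% and 37% in controls. Per length, the axonemal gene Rp1, another rod disease gene, averaged 1578 TPM in libraries labelled Jun knockdown and 1020 TPM in controls.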
